A study of Mus musculus with 6 samples.

Results

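The genes described here build and hold together chromosomes and repair them by recombination. They are 33 of the 52550 Ensembl genes in the count tables, chosen by symbol. Of these, 7 are of cohesin and the factors that acetylate or protect it, 8 of condensin, and 1 is topoisomerase II alpha. The other 17 are of recombination repair, the Fanconi pathway, mismatch repair and the replication checkpoint. Each symbol matched 1 identifier of GENCODE release M21, and all 33 had enough counts to be tested. QuantSeq libraries, which read the 3' ends of polyadenylated RNA, were made from cultured neonatal cardiomyocytes isolated from mouse hearts on postnatal day 1, with 3 libraries from control animals and 3 from GR-cKO animals, in which the glucocorticoid receptor was deleted in cardiomyocytes. All 6 libraries came from cells that were sorted with magnetic beads, kept for 48 hours with serum (5% from horse, 10% fetal bovine) and then for 24 hours without it, with the treatment labelled as control in both genotypes. The labels name neither the Cre driver nor the deleted exon, nor the alleles the controls carried. They call the libraries biological replicates without tying them to animals, litters or cultures, so each p-value weighs a difference against library spread alone, some of which may be technical.

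Cohesin is a ring of Smc1a, Smc3, Rad21 and a Stag subunit that encircles DNA. In interphase it forms chromatin loops in dividing and resting cells alike, and after replication it also holds sister chromatids together, for which the acetyltransferase Esco2 and the protector sororin (Cdca5) are needed in S phase and G2. Condensin I and condensin II share the ATPases Smc2 and Smc4 and compact chromosomes for mitosis, where topoisomerase II alpha untangles them. Homologous recombination, led by Brca1 and Brca2, repairs broken DNA with the sister chromatid as template and so works in S phase and G2. Cardiomyocytes of newborn mice are leaving the cell cycle in the days after birth.

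Each library held 19371508 to 22583596 counts in genes. Nr3c1, which encodes the glucocorticoid receptor, had a mean normalised count of 71.5 ± 2.95 (SD, n = 3) in control, against 44.4 ± 1.70 (SD, n = 3) in GR-cKO. All levels are given in CPM, each library's counts scaled to a common total. Reads from the end of a transcript may miss a deletion elsewhere in it, so this level is a weak check of the labels. Mki67 and Pcna, markers of dividing cells named after their values were seen, were at 45.9 ± 9.39 and 31.9 ± 4.17 CPM in control and at 23.9 ± 2.22 and 18.1 ± 1.32 CPM in GR-cKO; the part of cell division in the results was not tested. Cardiomyocyte markers were abundant in every library, with a summed level of 25902 to 26828 CPM for 8 genes in control and 30831 to 31415 CPM in GR-cKO. Xist, the RNA of the inactive X chromosome, stood at 293, 271 and 272 CPM in the controls and at 0, 0.0996 and 0 CPM in GR-cKO, so genotype and this difference in sex-linked RNA cannot be told apart in these libraries.

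Most of the 33 genes were lower in GR-cKO. Between the genotypes 25 of 33 fell and none rose (edgeR quasi-likelihood test, adjusted p below 0.05 over all 14386 genes tested), where 7.19% of all genes tested fell and 7.63% rose. No member had a fold change above 0 at an unadjusted p below 0.05, and with DESeq2 23 fell and 0 rose. Scaled by the ERCC spike-in RNAs in place of the TMM factors, 19 of the 33 fell and none rose, and among all genes the split went from 1097 higher and 1035 lower to 1355 higher and 522 lower. The median log2 fold change of the 33 was -0.81, beside -0.01 over all genes tested. The level dropped 2-fold or more for 13 of them, against 1.29% of all genes tested, and in 29 of 33 all GR-cKO libraries lay below all controls, against 14.7% of all genes tested; none lay wholly above the controls, against 15.2%. The members were chosen with earlier results of these data known, so these shares describe them and are not independent evidence. In bulk RNA, fewer cells that transcribe a gene and less RNA per cell cannot be told apart.

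Listed by role, the falls differed in size, and the difference between the classes was not tested. Beside each class, 7.19% of all genes tested fell. Of the 5 always-on cohesin genes 3 fell, with a median of -0.22 on the log2 scale. All 8 genes grouped here as bound to cell division (Esco2, Cdca5, the shared and condensin I subunits and Top2a) fell, with a median of -1.02. Condensin II, which also acts in mitosis and shares Smc2 and Smc4, was listed apart. These classes were set with earlier results of these data known. Of the 3 genes of condensin II alone 2 fell (median -0.66), and of the 17 repair and checkpoint genes 12 fell (median -0.86). Each library's median over the 33 genes, as a log2 ratio to the control mean, was 0.03, 0.01 and -0.06 in control and -0.86, -0.70 and -0.76 in GR-cKO, so no GR-cKO library stood apart. The always-on and division-bound ranges overlapped slightly, since Smc3 of the always-on genes (-0.50) and Smc4 of the division genes (-0.49) lay side by side.

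**Figure D1:**
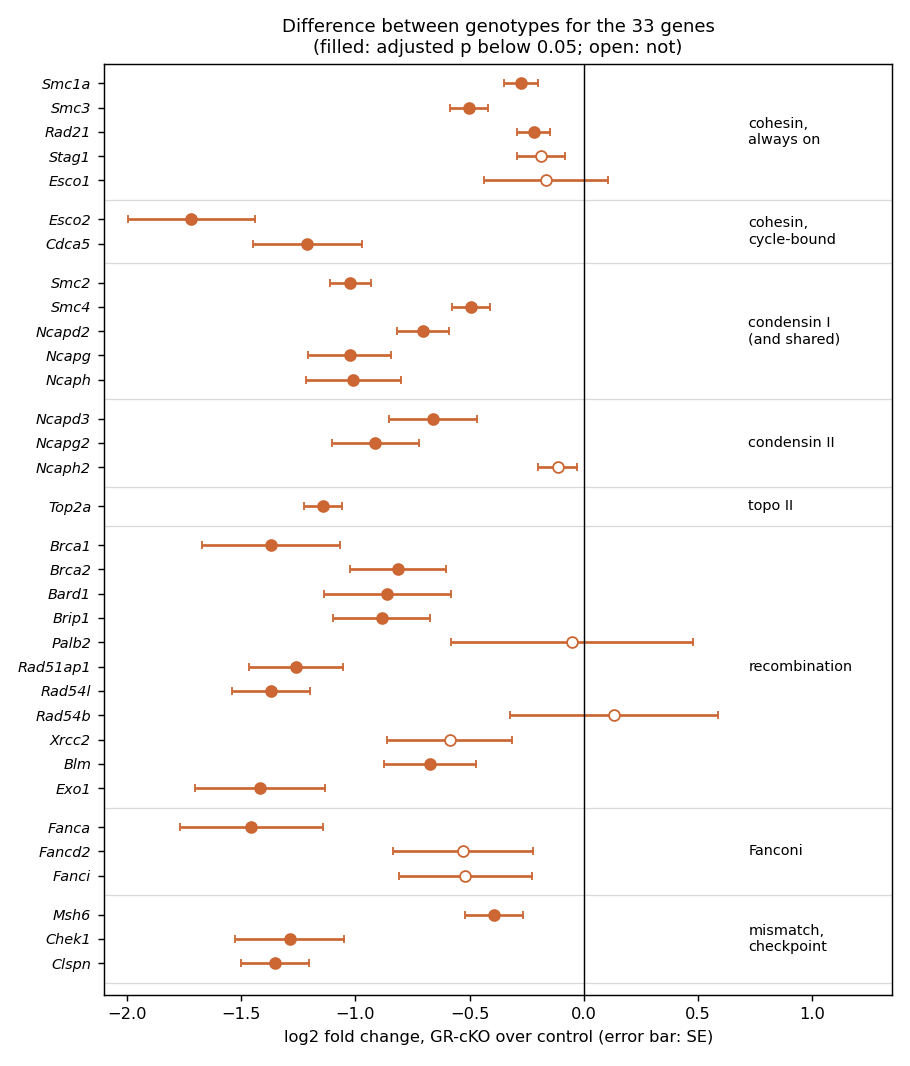
Log2 fold change of GR-cKO over control (x axis, with SE) for each of the 33 genes, grouped by role; filled circles passed an adjusted p of 0.05 in edgeR's quasi-likelihood test and open circles did not. The always-on cohesin genes lie between -0.50 and -0.16, while Esco2 is at -1.72 and Top2a at -1.14.

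Of the 4 ring subunits of cohesin among the 33 genes, 3 fell, by at most 1.42-fold. Smc1a, an ATPase of the ring (ENSMUSG00000041133, GRCm38 chromosome X, 152016428 to 152062694), stood at 163, 148 and 144 CPM in the control libraries and at 131, 124 and 120.2 CPM in GR-cKO. The groups did not overlap, and the difference was 1.21-fold (log2 fold change -0.28 ± 0.08, SE; edgeR adjusted p = 0.013). Its partner ATPase Smc3 (ENSMUSG00000024974, chromosome 19, 53600398 to 53645833) stood at 86.7, 82.1 and 77.7 CPM and at 59.0, 60.6 and 54.3 CPM, a fall of 1.42-fold (-0.50 ± 0.08, edgeR adjusted p = 0.000135). Rad21, the kleisin that closes the ring and is cut by separase in anaphase, stood at 166, 176 and 174 CPM and at 158, 143 and 142 CPM, again without overlap (-0.22 ± 0.07, edgeR adjusted p = 0.0407). The falls of Smc1a and Rad21 were small enough to depend on the fit: with ERCC scaling their adjusted p were 0.258 and 0.489. Smc1a also missed the threshold without control replicate 1 (0.0779), GR-cKO replicate 2 (0.0574) or GR-cKO replicate 3 (0.0552). Rad21 also missed it without control replicate 2 (0.157), control replicate 3 (0.102), GR-cKO replicate 2 (0.167) or GR-cKO replicate 3 (0.134). With no filter on low counts Rad21 missed it as well (0.0525). In the fits without GR-cKO replicate 2 or 3 only 1 of the 5 always-on genes, Smc3, was called. Smc1a lies on the X chromosome, and Xist separated the same libraries; its part in the Smc1a value was not tested. Stag1, which anchors the ring on DNA, did not pass (36.7 ± 1.72 and 32.2 ± 2.75 CPM, n = 3 each, adjusted p = 0.276). Its alternative Stag2, which is not among the 33 and was named after its values were seen, was at 68.6 ± 3.10 and 56.3 ± 3.08 CPM and fell 1.22-fold (edgeR adjusted p = 0.0261). It missed the threshold with ERCC scaling and without control replicate 1 or 2 or GR-cKO replicate 1 or 2 (0.0768 to 0.275), and it lies on the X chromosome, as Smc1a does.

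The 2 acetyltransferases that modify Smc3 differed in their values. Esco1, which acts on cohesin throughout interphase, stood at 5.08, 5.15 and 7.16 CPM in control and 3.66, 4.33 and 7.57 CPM in GR-cKO, and the groups overlapped (log2 fold change -0.16 ± 0.27, adjusted p = 0.776). Esco2, which acts at the replication fork (ENSMUSG00000022034, chromosome 14, 65819038 to 65833994), stood at 6.14, 6.37 and 8.84 CPM and at 1.99, 2.69 and 1.80 CPM. Every GR-cKO library was low, the highest of them below its lowest control, and its fall of 3.29-fold was the largest of the 33 (-1.72 ± 0.28, edgeR adjusted p = 7.56e-05). These levels rest on 128 to 179 counts per control library and 35 to 54 per GR-cKO library. Sororin (Cdca5), which keeps the releasing factor Wapl from opening acetylated cohesin, stood at 7.58, 6.56 and 9.14 CPM in control and 3.70, 3.19 and 3.14 CPM in GR-cKO, a fall of 2.31-fold (adjusted p = 0.000729, edgeR).

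The shared subunits of condensin both fell, by different amounts. Smc2 (ENSMUSG00000028312, chromosome 4, 52439243 to 52488260) stood at 82.0, 85.9 and 74.9 CPM in control and 37.7, 42.1 and 39.9 CPM in GR-cKO. With no overlap it fell 2.03-fold (log2 fold change -1.02 ± 0.09, edgeR adjusted p = 1.21e-08). Smc4, with which it forms the ATPase pair of every condensin, stood at 128, 116 and 106 CPM and at 81.1, 86.2 and 81.9 CPM, a fall of 1.41-fold (-0.49 ± 0.08, edgeR adjusted p = 0.000122). The log2 ratio of Smc2 to Smc4 counts was -0.65, -0.44 and -0.50 in the control libraries and -1.11, -1.03 and -1.04 in GR-cKO. In cohesin the corresponding ratio of Smc1a to Smc3 was 0.91, 0.85 and 0.89 in control and 1.15, 1.04 and 1.15 in GR-cKO. In both, all GR-cKO libraries lay on 1 side of all controls. The ratio of the repair partners Brca1 to Bard1 overlapped, at -0.32, -0.07 and 0.11 in control and 0.62, -1.79 and -0.70 in GR-cKO. These 3 partner ratios were chosen after the values were seen and were not tested.

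Of the subunits that belong to condensin I alone, all 3 fell. The kleisin Ncaph stood at 15.9, 23.1 and 29.9 CPM in control and 12, 14.7 and 7.47 CPM in GR-cKO, a wide spread in both groups with control replicate 1 close to GR-cKO replicate 2 (2.01-fold, adjusted p = 0.00119). The HEAT-repeat subunit Ncapg stood at 16.7, 14.9 and 14.3 CPM and at 6.05, 9.51 and 7 CPM (2.03-fold lower, edgeR adjusted p = 0.000229). Ncapd2, the other HEAT-repeat subunit, fell 1.63-fold, from 43.3 ± 5.96 to 26.6 ± 2.08 CPM (n = 3 each). In condensin II, which is nuclear throughout the cycle, Ncapg2 stood at 10.5, 14 and 16.1 CPM in control and 6.51, 6.67 and 8.45 CPM in GR-cKO, a fall of 1.88-fold (edgeR adjusted p = 0.00134). Ncapd3 fell 1.58-fold, from 12.7 ± 1.91 to 8.05 ± 1.92 CPM (edgeR adjusted p = 0.0208), but its adjusted p was 0.0531 with ERCC scaling, 0.0581 without control replicate 1, 0.113 without control replicate 2, 0.128 without GR-cKO replicate 1 and 0.0730 without GR-cKO replicate 2, and then 1 of the 3 condensin II genes was called. The kleisin Ncaph2 did not pass, at 66.5, 67.1 and 65.8 CPM and at 57.2, 65.5 and 61.4 CPM (adjusted p = 0.443). Its annotated 3' end lies beside Sco2 on the opposite strand (11.9 ± 0.297 and 15.8 ± 2.31 CPM, edgeR adjusted p = 0.0801). The strand setting of the counting is not given in the sources used here. Opposite-strand neighbours also lie at the 3' ends of Ncapg (Lcorl), Fanca (Zfp276), Fanci (Polg) and Msh6 (Fbxo11). Their control means were 9.88, 10.1, 29.0 and 29.7 CPM, their GR-cKO means 10.3, 10.4, 28.6 and 27.3 CPM, and none passed.

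Top2a, the mitotic topoisomerase (ENSMUSG00000020914, chromosome 11, 98992943 to 99024189), had the smallest p of the 33. It stood at 180.5, 167 and 149 CPM in control and at 78.3, 77.2 and 69.9 CPM in GR-cKO, with 1358 to 3764 counts behind each value. The fall was 2.20-fold (log2 fold change -1.14 ± 0.08, edgeR adjusted p = 4.65e-10). Top2b, its counterpart in resting cells, had 181 ± 6.55 and 164 ± 9.88 CPM (n = 3 each) and did not pass (adjusted p = 0.208).

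**Figure D2:**
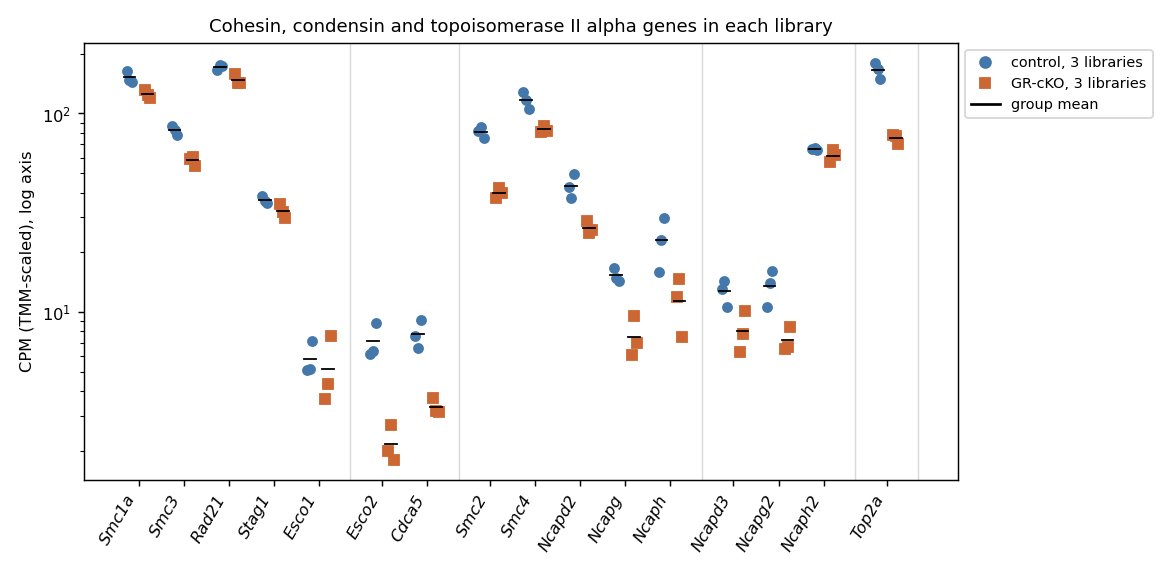
TMM-scaled CPM (log axis) of the cohesin, condensin and Top2a genes in each of the 3 control libraries (circles) and 3 GR-cKO libraries (squares), with group means as bars. The groups are clearly apart for Esco2, Cdca5, Smc2 and Top2a, and overlap for Esco1.

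Ratios within a library put division-bound and other relatives side by side without any scaling between libraries. The log2 ratio of Esco2 to Esco1 counts was 0.27, 0.31 and 0.30 in control and -0.87, -0.68 and -2.06 in GR-cKO, so that Esco2 had the higher count in every control and Esco1 in every GR-cKO library. The ratio of Top2a to Top2b was 0.02, -0.07 and -0.33 in control and -1.01, -1.03 and -1.32 in GR-cKO. For Ncaph to Ncaph2 it was -2.07, -1.54 and -1.14 and then -2.26, -2.15 and -3.04. The mean differences were -1.5, -0.99 and -0.9, and none of these 3 ratios overlapped between the groups (exact permutation test, two-sided, p = 0.1 each, the smallest that 3 libraries against 3 allow, and 0.167 adjusted over the 5 ratios computed). Of the 3 ratios of condensin I to condensin II, that of Ncaph to Ncaph2 was thus lower in all GR-cKO libraries, and the other 2 overlapped between the groups. Ncapd2 to Ncapd3 differed by -0.03 (exact permutation p = 0.7) and Ncapg to Ncapg2 by -0.15 (p = 0.6), with SDs of 0.41 to 0.43 within the groups, and both adjusted values were 0.7. The sign of these last differences changed when some single libraries were left out.

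**Figure D3:**
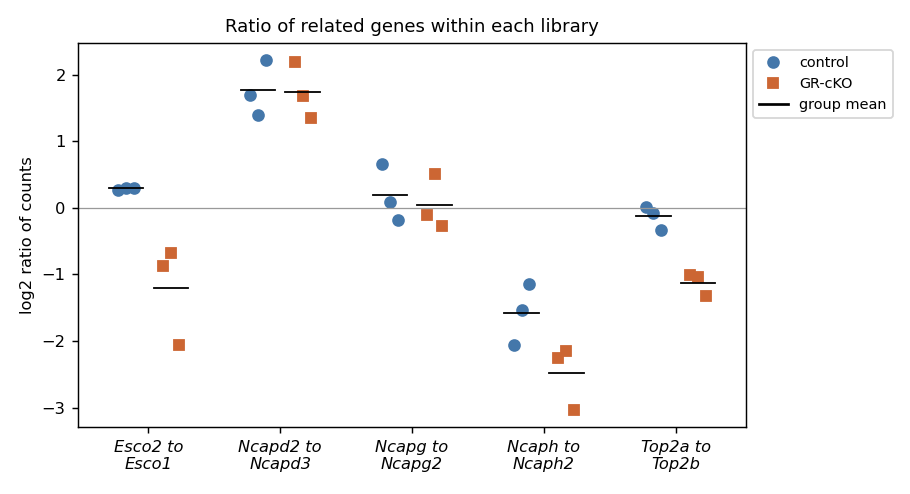
Log2 ratio of the counts of related genes (y axis) in each control (circles) and GR-cKO library (squares), with group means as bars. The ratios of Esco2 to Esco1, Ncaph to Ncaph2 and Top2a to Top2b are lower in all GR-cKO libraries, while those of Ncapd2 to Ncapd3 and Ncapg to Ncapg2 overlap.

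Promoters are shown beside these values, and their part in the falls was not tested. Promoters of genes expressed late in the cycle are known to carry the CHR element, bound by the DREAM and MuvB complexes, and CCAAT boxes, bound by NF-Y, while those of S-phase genes carry E2F sites. The CHR element was searched as TTTGAA or in the second spelling TTCGAA, which reads the same on both strands and was counted once. The CCAAT box was searched by its own letters. E2F sites were searched as TTCCCGC or in the second spelling TTCGCGC, the third spelling TTGGCGC and the fourth spelling TTGCCGC. The reverse of a CCAAT box can share letters with the third of these. RefSeq promoters on GRCm38.p6 matched 25 of the 33 genes, and each window of 300 bases, from 250 before to 50 after the transcription start, was searched on both strands. For 7 genes the 250 bases before the start are printed 5' to 3' along the gene, with matches to any of these words in capitals. They are Top2a and 2 condensin genes, 2 recombination genes, and 2 always-on cohesin genes for contrast, each with the smallest p in its class among genes whose 250 bases before the start hold at most 10 bases of the GENCODE gene.
Top2a, chr11:99024190-99024439, minus strand: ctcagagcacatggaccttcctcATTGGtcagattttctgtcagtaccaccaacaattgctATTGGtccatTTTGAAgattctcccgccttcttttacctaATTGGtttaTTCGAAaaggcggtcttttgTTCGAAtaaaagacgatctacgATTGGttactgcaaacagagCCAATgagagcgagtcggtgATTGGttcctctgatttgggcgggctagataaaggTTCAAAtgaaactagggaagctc
Smc2, chr4:52438971-52439220, plus strand: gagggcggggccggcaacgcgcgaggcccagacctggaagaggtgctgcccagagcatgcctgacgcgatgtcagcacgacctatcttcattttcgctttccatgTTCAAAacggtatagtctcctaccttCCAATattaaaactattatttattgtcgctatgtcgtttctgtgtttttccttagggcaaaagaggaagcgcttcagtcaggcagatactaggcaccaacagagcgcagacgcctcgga
Ncapg, chr5:45669675-45669924, plus strand: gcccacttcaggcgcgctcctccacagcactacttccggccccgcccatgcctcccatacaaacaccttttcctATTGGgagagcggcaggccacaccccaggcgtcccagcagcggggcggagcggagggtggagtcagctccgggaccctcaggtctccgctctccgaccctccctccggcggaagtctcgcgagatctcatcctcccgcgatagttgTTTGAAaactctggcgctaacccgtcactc
Rad54l, chr4:116123691-116123940, minus strand: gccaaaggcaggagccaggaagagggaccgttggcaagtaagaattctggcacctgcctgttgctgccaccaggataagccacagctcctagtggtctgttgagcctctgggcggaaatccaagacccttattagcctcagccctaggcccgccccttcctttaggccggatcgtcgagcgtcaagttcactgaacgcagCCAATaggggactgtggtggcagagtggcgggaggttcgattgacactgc
Rad51ap1, chr6:126939588-126939837, minus strand: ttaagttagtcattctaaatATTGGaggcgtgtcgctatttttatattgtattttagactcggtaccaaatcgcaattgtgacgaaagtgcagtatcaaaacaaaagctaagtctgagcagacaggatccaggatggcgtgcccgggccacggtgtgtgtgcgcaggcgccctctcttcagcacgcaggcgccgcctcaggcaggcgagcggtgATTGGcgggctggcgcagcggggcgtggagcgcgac
Smc3, chr19:53600146-53600395, plus strand: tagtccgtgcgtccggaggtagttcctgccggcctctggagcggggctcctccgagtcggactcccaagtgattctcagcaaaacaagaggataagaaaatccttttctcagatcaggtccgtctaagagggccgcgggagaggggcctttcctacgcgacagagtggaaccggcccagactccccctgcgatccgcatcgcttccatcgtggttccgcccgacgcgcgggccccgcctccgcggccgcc
Smc1a, chrX:152016178-152016427, plus strand: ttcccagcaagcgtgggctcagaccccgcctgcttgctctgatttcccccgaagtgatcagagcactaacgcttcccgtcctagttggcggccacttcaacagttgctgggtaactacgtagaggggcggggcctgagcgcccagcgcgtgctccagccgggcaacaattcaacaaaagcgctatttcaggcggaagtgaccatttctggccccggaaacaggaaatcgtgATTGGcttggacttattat

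Among these, Top2a held 4 CHR words and 6 CCAAT words, all before the start, and Ncapg a CHR word from -30 to -25 (position -1 is the base before the start), a CCAAT word and an E2F word from 31 to 37, past the printed part. Smc2 held a CCAAT word, a CHR word from -145 to -140 and another from 26 to 31. Rad51ap1 held 2 CCAAT words and an E2F word from 12 to 18, Rad54l a CCAAT word alone, Smc1a a CCAAT word and an E2F word from 38 to 44, and Smc3 none of the words. Over all windows, CHR words stood in 5 of 6 promoters of the division-bound genes, 2 of 3 of condensin II, 1 of 13 of the repair and checkpoint genes and 0 of 3 of always-on cohesin. They stood in 13.7% of the 13362 promoters of genes tested and in 19.2% of all 32851 promoters of the same length. E2F words stood in 4 of 6, 2 of 3, 10 of 13 and 2 of 3 promoters of the same classes, against 16.3% for genes tested and 9.57% for all promoters. CCAAT words stood in 4 of 6, 0 of 3, 9 of 13 and 2 of 3, against 37.4% in both. These counts include 3 windows that lie wholly inside the GENCODE gene, those of Stag1, Chek1 and Fanci, whose RefSeq starts are 45650, 407 and 409 bases past the annotated gene start. All 3 held an E2F word, and that of Stag1 is also 1 of the 2 always-on promoters with a CCAAT word. A match is a run of letters and not a measured binding site, and its absence says only that these letters are not in this window.

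The genes of recombination repair were mostly lower, at low levels. Brca1 and Bard1 form the ubiquitin ligase that starts the processing of broken ends. Brca1 stood at 5.99, 6.37 and 6.62 CPM in control and 3.75, 1.59 and 1.96 CPM in GR-cKO, without overlap (2.58-fold lower; log2 fold change -1.37 ± 0.30, edgeR adjusted p = 0.00228). Bard1 stood at 7.48, 6.70 and 6.12 CPM and at 2.44, 5.58 and 3.19 CPM (1.81-fold lower). Its adjusted p of 0.0375 rose to 0.057 with ERCC scaling, to 0.0563 with DESeq2 and to between 0.0832 and 0.187 without control replicate 1 or 2 or GR-cKO replicate 1 or 3. Brca2, a mediator of strand exchange, fell 1.76-fold, from 10.0 ± 2.24 to 5.71 ± 0.366 CPM (n = 3 each; edgeR adjusted p = 0.00855, and 0.0551 or 0.0501 without control replicate 1 or 2). Brip1, a helicase that binds Brca1, fell 1.85-fold (edgeR adjusted p = 0.00487). Palb2, which links Brca1 to Brca2, stood at 0.959, 1.5 and 1.19 CPM and at 0.633, 1.15 and 1.75 CPM, from 14 to 34 counts a library, and a difference was not detectable at this depth (log2 fold change -0.05 ± 0.53).

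Of 6 factors that act in strand invasion, end resection and the processing of joined molecules, 4 fell. Rad54l, a motor protein that helps a broken strand invade the template (ENSMUSG00000028702, chromosome 4, 116094264 to 116123690), stood at 15.1, 20.9 and 21 CPM in control and 6.55, 7.57 and 7.98 CPM in GR-cKO. Its groups were far apart, with a fall of 2.58-fold (log2 fold change -1.37 ± 0.17, edgeR adjusted p = 2.39e-06). Lrrc41, which lies beside its 3' end on the opposite strand, was at 23.6 ± 1.46 and 22.4 ± 3.30 CPM (n = 3 each) and did not pass (adjusted p = 0.78). Rad51ap1, a DNA-binding protein of strand invasion, stood at 10.5, 14.5 and 10.3 CPM and at 4.43, 5.63 and 4.69 CPM (2.39-fold lower, edgeR adjusted p = 8.89e-05). Rad54b, a relative of Rad54l, stood at 1.53, 1.55 and 1.19 CPM and at 1.49, 1.64 and 1.55 CPM and was the only member with a fold change above 0 (0.13 ± 0.46, adjusted p = 0.905). Exo1, a nuclease that resects broken ends and also serves mismatch repair, fell 2.67-fold, from 6.14, 8.25 and 5.83 CPM to 1.67, 3.09 and 2.83 CPM (edgeR adjusted p = 0.00085). Blm, the Bloom syndrome helicase that takes joined molecules apart, fell 1.59-fold (edgeR adjusted p = 0.0237), but its adjusted p was 0.0761 with ERCC scaling, 0.115 without control replicate 1, 0.0581 without control replicate 2, 0.119 without GR-cKO replicate 2 and 0.0837 without GR-cKO replicate 3. Xrcc2, which also serves strand exchange, was at 4.79 ± 0.365 and 3.19 ± 0.486 CPM and did not pass (adjusted p = 0.172), although its groups did not overlap.

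In the Fanconi pathway, which repairs crosslinks between DNA strands, only Fanca of 3 members passed. Fanca, of the core complex, stood at 5.66, 4.45 and 8.2 CPM in control and 2.44, 1.44 and 2.78 CPM in GR-cKO, 2.74-fold lower (edgeR adjusted p = 0.00172). Fancd2 and Fanci form the clamp that this complex ubiquitinates. Fancd2 stood at 6.23, 5.11 and 5.28 CPM and at 6.01, 3.44 and 2.01 CPM, with GR-cKO replicate 1 inside the control range (adjusted p = 0.297, and 0.0428 at a log2 fold change of -1.02 without that library). Fanci stood at 3.60, 4.26 and 4.15 CPM and at 2.71, 2.84 and 2.83 CPM, below all controls in each GR-cKO library without passing (adjusted p = 0.279).

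Both replication checkpoint members, Clspn and Chek1, were among the larger falls. Of 11 other checkpoint genes tested, 8 did not pass, and the median log2 fold change of that list was -0.10. Clspn (claspin), the adaptor through which ATR activates the kinase Chk1, stood at 24.9, 22.4 and 19.2 CPM in control and 8.31, 8.67 and 9.06 CPM in GR-cKO, a fall of 2.55-fold (log2 fold change -1.35 ± 0.15, edgeR adjusted p = 4.86e-07). Chek1, which encodes Chk1, stood at 10.9, 6.84 and 8.30 CPM and at 3.75, 2.99 and 3.91 CPM, 2.44-fold lower (edgeR adjusted p = 0.000405). In both the groups were well apart. Msh6, a sensor of mismatched bases, fell by less, at 28.1, 26.7 and 21.9 CPM and 18.8, 18.9 and 20.7 CPM (1.31-fold). Its adjusted p of 0.0384 went above the threshold with ERCC scaling (0.171), with DESeq2 (0.0549), and without control replicate 1 or 2 or GR-cKO replicate 1 or 2 (0.123 to 0.165).

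**Figure D4:**
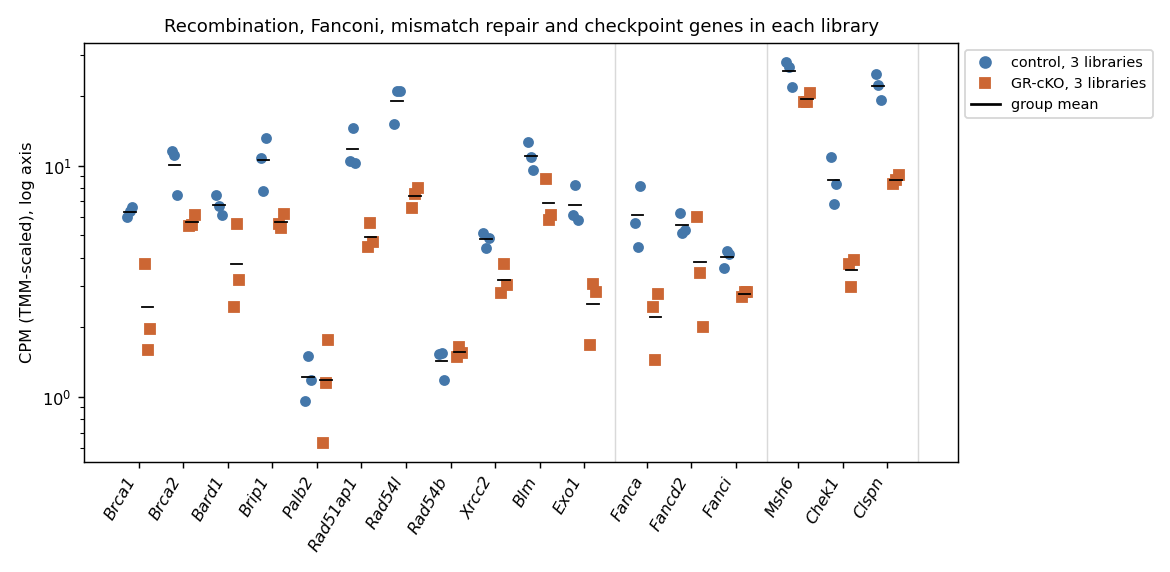
TMM-scaled CPM (log axis) of the recombination, Fanconi, mismatch repair and checkpoint genes in each of the 3 control (circles) and 3 GR-cKO libraries (squares), with group means as bars. Rad54l, Chek1 and Clspn are separated between the groups, while Palb2, Rad54b and Fancd2 overlap.

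Of the 8 members that did not pass, Esco1, Palb2, Rad54b, Xrcc2, Fancd2 and Fanci had control means of 1.21 to 5.80 CPM and standard errors of 0.27 to 0.53 on the log2 scale, so the data could not show a moderate change for them. The other 2, Stag1 and Ncaph2, had standard errors of 0.10 and 0.09. A p that misses the threshold does not show that these genes were equal in both groups.

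Other genes of the same pathways were listed by function. Of 91 tested, 19 fell and 1 rose, against the same shares of 7.19% and 7.63% over all genes, with a median log2 fold change of -0.18. Among 14 cohesin regulators and other subunits 5 fell, led by the shugoshins Sgo1 (16.4 ± 0.915 and 7.35 ± 1.04 CPM, n = 3 each) and Sgo2a (25.3 ± 4.48 and 11.8 ± 1.81 CPM), which guard centromeric cohesion in mitosis, and Espl1 (separase), which opens the ring, with a log2 fold change of -0.90 ± 0.22. With ERCC scaling 3 of these 14 fell, as they did when control replicate 1 or 2 or GR-cKO replicate 2 was left out. The loader Nipbl had 91.0 ± 2.49 and 97.4 ± 3.79 CPM and the releasing factor Wapl 65.7 ± 3.42 and 58.5 ± 5.64 CPM, and neither passed (adjusted p = 0.48 and 0.258). Pttg1 (securin) had 43.0 ± 2.91 and 40.8 ± 1.59 CPM and did not pass either (edgeR adjusted p = 0.702). Smc6 fell (log2 fold change -0.25 ± 0.08, edgeR adjusted p = 0.0256). It missed the threshold with ERCC scaling and without control replicate 1 or 2 or GR-cKO replicate 2 or 3 (0.0579 to 0.352). Nipbl, Wapl, Pttg1 and Smc6 were named after their values were seen.

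Among 32 other recombination genes 8 fell, and 5 with ERCC scaling or when control replicate 1 or GR-cKO replicate 1 or 2 was left out. Beside this and the next 2 lists, 7.19% of all genes tested fell. Over all genes that was 1035 genes, against 522 with ERCC scaling and 726 to 889 when a library was left out. Rpa2 and Rpa1, subunits of the protein that coats unpaired DNA strands, were among them (log2 fold change -0.85 ± 0.12 and -0.51 ± 0.10). In the Fanconi list 2 of 13 fell, the deubiquitinase Usp1 (52.7 ± 6.61 and 33.1 ± 2.08 CPM) and the core subunit Fancb (3.11 ± 1.46 and 0.936 ± 0.467 CPM), which lies on the X chromosome, as Smc1a does. When control replicate 2 or 3 or GR-cKO replicate 2 was left out, Fancb was not called and 1 of the 13 fell. Of 11 tested checkpoint genes 3 fell: the ATR activator Topbp1 (log2 fold change -0.76 ± 0.13), and the fork protection partners Tipin (-0.68 ± 0.13) and Timeless (-0.64 ± 0.20). Timeless missed the threshold with ERCC scaling and without control replicate 1 or 3 or GR-cKO replicate 1 or 2 (adjusted p 0.0511 to 0.17). Atrip was listed at 0 in all libraries.

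End joining repairs breaks without a template and at any stage of the cycle. Its genes were called about as rarely as all genes tested (7.19% lower, 7.63% higher): of 11 tested, 1 fell (Rif1, 44.0 ± 5.24 and 35.0 ± 3.69 CPM, with overlapping groups) and 1 rose (Trp53bp1, 30.2 ± 4.19 and 39.0 ± 3.58 CPM), with a median of 0.10. The fall of Rif1 did not pass with ERCC scaling, with DESeq2 or without control replicate 1 or 2 or GR-cKO replicate 1 or 3 (adjusted p 0.0678 to 0.215), and the rise of Trp53bp1 did not without control replicate 1 or 3 or GR-cKO replicate 1 or 2 (0.0818 to 0.159). None of 6 other mismatch repair genes passed; Pms1, with the smallest p, was at 3.86 ± 1.19 and 2.17 ± 0.242 CPM. None of 4 other topoisomerases passed either, with Top1mt at 4.62 ± 1.44 and 7.18 ± 1.09 CPM and Top1 at 167 ± 12.7 and 147 ± 6.47 CPM. At an unadjusted p below 0.05, 1 of the mismatch genes and 2 of the topoisomerases were counted; with DESeq2 none of either list passed. Leaving out control replicate 2 gave 1 mismatch gene lower, and leaving out control replicate 3 gave 1 topoisomerase lower. With the replicate block 1 topoisomerase was higher.

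**Figure D5:**
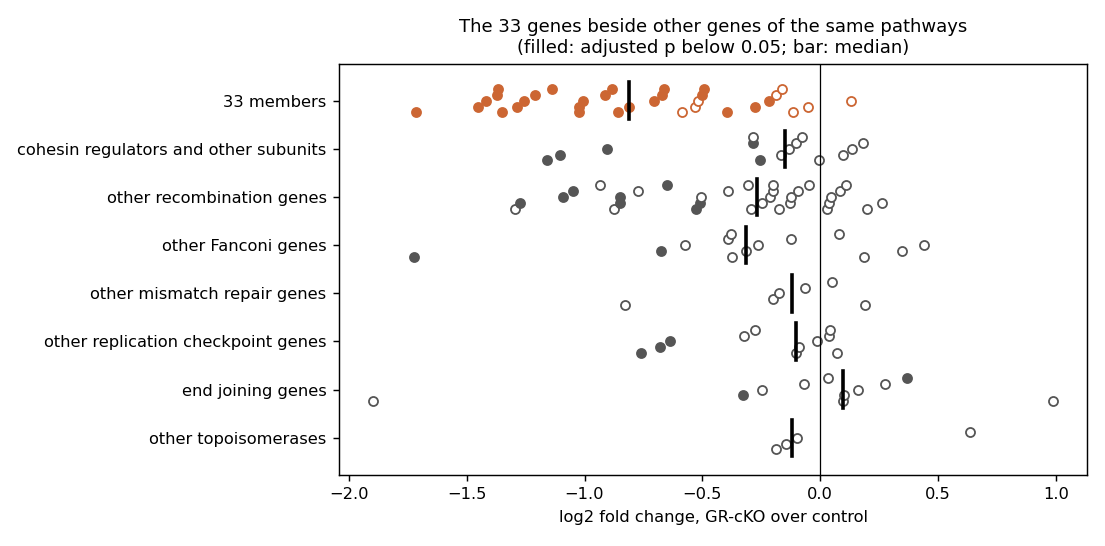
Log2 fold change (x axis) of the 33 genes and of other genes of their pathways, 1 point a gene, filled where edgeR's adjusted p was below 0.05, with the median as a bar. The 33 have a median of -0.81, the other lists medians between -0.32 and 0.10.

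Markers of other heart cells moved beside these genes. Summed over 7 fibroblast markers the level was 3583 to 3788 CPM in control and 4688 to 4816 CPM in GR-cKO (4 rose, 1 fell), over 6 endothelial markers 625 to 676 and 737 to 766 CPM (4 rose, 1 fell), and over 6 smooth muscle and pericyte markers 3585 to 3694 and 4196 to 4414 CPM (4 rose). Over 5 leukocyte markers it was 11.6 to 16.2 and 33.5 to 51.9 CPM, with 2 of 3 tested higher. Most of the smooth muscle and pericyte sum was Acta2 (3295 and 3835 CPM), and most of the leukocyte sum Lyz2 (12.9 and 40.6 CPM). Some markers of these lists went the other way. Dcn (log2 fold change -0.37) and Emcn (-0.64) fell, and Pdgfra (-0.27), Tagln (-0.23) and Myh11 (-0.60) were lower without passing. Of 8 cardiomyocyte markers 5 rose and 2 fell. For 4 epicardial markers the summed ranges overlapped, at 89.6 to 93.7 and 86.4 to 102 CPM, while their members moved in opposite directions: Krt19 rose 4.89-fold, and Upk3b and Tbx18 fell 2.25-fold and 1.47-fold. The ranges also overlapped for erythroid markers (0.843 to 2.73 and 2.35 to 4.43 CPM) and Schwann cell and neural markers (12.4 to 16.0 and 8.22 to 12.8 CPM), and no marker of these last lists passed. The division-bound genes were lower in GR-cKO while these marker sums were higher or overlapped. A sum led by 1 gene does not give the level of a cell type. The part of other cell types in the results was not tested.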

How the data were processed

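Each library had its own table of deposited counts, whole numbers that the authors had not normalized. STAR 2.5.4a and featureCounts 1.6.2 are among the tools listed, per the submitters' processing notes, with cutadapt 1.16, DESeq2 1.18.1 and the mouse build GRCm38. How strand and multiply mapped reads were handled is not given in the sources used here. Per the labels, 100 ng of RNA went into QuantSeq 3' libraries in forward orientation, so counts do not scale with transcript length. Each table held 52550 Ensembl genes, 92 ERCC and 7 SIRV spike-ins. Spike-ins, 1.98% to 2.36% of counts, entered neither library sizes nor tests. GENCODE release M21 named 52403 genes. Coordinates are 1-based.

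Groups and replicate numbers came from the sample titles. GR-cKO was compared with control by the quasi-likelihood test of edgeR 4.0.16 in R 4.3.3, using TMM factors (0.980 to 1.024) and edgeR's default low-count filter. Adjusted p-values are Benjamini-Hochberg values over 14386 genes. It was tested on simulated counts first. Levels are CPM scaled by these factors, mean ± SD over 3 libraries. Each SE is the fold change divided by the root of F. Lrrc41, Sco2, Lcorl, Zfp276, Polg, Fbxo11 and Atrip are named as neighbour or untested genes. Ratios within a library used log2 counts with 0.5 added. No 2 libraries of a group matched within counting error (median chi-square of 2.47 to 3.71 per gene). The floor, 3 counts for a count of 0, is 0.133 to 0.155 CPM and covers counting error only. Same-numbered libraries of the groups did not deviate together.

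The members and lists were chosen with earlier results of these data known. By rule the text names Nr3c1, Xist and all 33 members. Of each related list it names up to 3 genes with the smallest p among those past the threshold. Where none passed, it gives 2 as values. Outside this rule it names Mki67, Pcna, Top2b, Nipbl, Wapl, Pttg1, Smc6, Stag2, Krt19, Upk3b and Tbx18. It also names the markers Acta2, Lyz2, Tagln, Myh11, Pdgfra, Dcn and Emcn. Some genes that this rule would name are not reported here. Alternatives were DESeq2 size factors, ERCC scaling, no filter, the DESeq2 test (DESeq2 1.42.0), a replicate block and leaving out each library.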

Additional observations from a re-analysis of the deposited data

How the results depend on the processing

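Of the 25 members that fell, 18 also fell under all 11 alternatives (DESeq2 size factors, ERCC scaling, no filter, the DESeq2 test, the replicate block and leaving out each of 6 libraries). The other 7 (Smc1a, Rad21, Ncapd3, Brca2, Bard1, Blm and Msh6) missed the threshold under at least 1 of them while keeping their direction, and Fancd2 passed without GR-cKO replicate 1. Under the alternatives 19 to 25 members fell and none rose, and the count was 19 to 24 when a library was left out. All 8 division-bound genes fell in every alternative. With ERCC scaling 1 always-on cohesin gene and 1 condensin II gene fell, and 522 genes in all; the median over all genes moved from -0.01 to 0.09 and that of the members from -0.81 to -0.71. Leaving out a library gave 1 to 3 always-on, 1 to 2 condensin II and 8 to 12 repair and checkpoint genes lower. It moved the difference in the log2 ratio of Ncapd2 to Ncapd3 between -0.25 and 0.20, and that of Ncapg to Ncapg2 between -0.378 and 0.088, so neither has a direction; the cause was not tested. The ratios of Esco2 to Esco1 (-1.76 to -1.07), Ncaph to Ncaph2 (-1.14 to -0.62) and Top2a to Top2b (-1.10 to -0.89) kept theirs.

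The replicate numbers are shared between the groups, and the labels do not say whether they pair the libraries. The deviations of same-numbered libraries correlated at only 0.00, 0.04 and 0.02. With 3 libraries a group this cannot exclude a pairing. With the replicate block 25 members fell, the same 25. Of all genes 1152 fell and 1201 rose with it, against 1035 and 1097 without it. Depth limits the members under about 5 CPM.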
